A study of Homo sapiens with 12 samples.

Results

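The Rab GTPases are the genes of the tables whose symbol is RAB followed by a number and at most 1 letter. By that rule 63 of 19038 genes are members, each with 1 transcript, and symbols with more letters (RAB40AL, RAB11FIP1) are not. Ribosome footprints and RNA were sequenced from xenografts of 22Rv1, a prostate cancer cell line, grown under the skin of the hind flank of male NSG mice, which are immunodeficient but keep their own stroma and blood vessels. The tumours were of 2 kinds, treated with zotatifin at 0.3 mg/kg in dextrose or with the dextrose vehicle alone, both injected into the peritoneum and both harvested 6 h later. Each treatment had 3 libraries of footprints and 3 of RNA, from 3 tumours numbered 1 to 3, so that there were 12 libraries in 4 groups. All tumours come from 1 cell line, and the mouse and the dextrose are common to every group. Groups were read from the sample titles and column names, because the treatment field goes against them for 6 of the 12 samples: it gives zotatifin to all 6 footprint samples and None to all 6 RNA samples. Zotatifin inhibits eIF4A, the RNA helicase that opens the leader of an mRNA for the scanning ribosome.

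Rab GTPases are small membrane switches, active when bound to GTP and inactive when bound to GDP. Exchange factors (GEFs) load them with GTP, activating proteins (GAPs) stimulate GTP hydrolysis, and a prenyl tail anchors them in the membrane of 1 organelle, where they recruit tethers, motors and other effectors. Each step of vesicle traffic has its own Rabs, from the endoplasmic reticulum (ER) and Golgi through secretory vesicles to endosomes and lysosomes, and secretory epithelia such as prostate use many of them.

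Footprint libraries held 838135 to 1540867 counts with zotatifin and 1592316 to 2013968 with vehicle, and RNA libraries held 6594884 to 8153674 with zotatifin and 5761921 to 7121802 with vehicle. Values are CPM, counts scaled to library size by TMM, so a change shared by all mRNAs of a library cannot be seen, and CPM is not corrected for length, so levels are compared between groups and not between genes. All 10 markers of prostate epithelium were measured in both assays. Their summed footprint level was 5362 to 6187 CPM with zotatifin and 4069 to 5364 CPM with vehicle, and 3 of the 10 rose, while in RNA none passed the test. The summed footprint level of 10 fibroblast markers was 140.4 to 259 CPM in the zotatifin tumours and 462 to 797 CPM in the vehicle tumours, and 5 of the 6 that could be tested fell. In RNA that sum was 69.4 to 131 CPM with zotatifin and 216 to 364 CPM with vehicle, and 4 of 6 fell. The 7 myeloid markers summed to 36.2 to 65.0 footprint CPM with zotatifin and 76.0 to 349 with vehicle (2 of 4 tested fell, and TYROBP was listed at 0 in RNA). In RNA that sum overlapped, at 10.8 to 20.2 CPM with zotatifin and 15.9 to 54.7 CPM with vehicle (1 of 3 tested fell). Footprint sums overlapped for muscle and fat markers (180 to 244 CPM with zotatifin, 218 to 396 CPM with vehicle). They also did for red blood cell markers (129 to 156 and 101 to 254 CPM). None of these fell in footprints, and 1 red blood cell marker fell in RNA. Endothelial markers summed to at most 4.45 footprint CPM, and none was tested in footprints. No step that removes mouse reads is named in the sources used here, and Rab coding sequences are much alike in mouse and human. The part of mouse RNA, or of a smaller share of stromal cells, in the Rab results was not tested, and fewer cells of a type and less RNA per cell cannot be told apart.

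Footprints of 6 Rab GTPases fell after zotatifin and those of none rose. The 6 were RAB10, which delivers exocytic vesicles, RAB6A and RAB1A of the Golgi, RAB5A and RAB5C of the early endosome, and RAB7A of the late endosome. They were 6 of the 44 members that passed the filter on low counts (13.6%), where 7.14% of all 9544 genes tested were called, 3.92% as falls and 3.22% as rises (edgeR's quasi-likelihood test, Benjamini-Hochberg adjusted p under 0.05). At an unadjusted p under 0.05, 16 members were lower (36.4%) and 0 higher, against 11.8% and 10.3% of all genes. DESeq2 was run on every gene with any count, a larger set. It called 5 of 62 members as falls and 0 as rises, where it called 1.42% of 15022 genes as falls. Genes to which DESeq2 gave no adjusted p count as not called in its shares, here and for RNA and TE. The median log2 change of the 44 was −0.21, against 0.0030 over all genes tested, and 35 of the 44 estimates were below 0 (79.5%, against 49.7% of all genes). All 3 zotatifin libraries lay below all 3 vehicle libraries in 17 members (38.6%), as they did in 13.5% of all genes, and above them in 1 member, RAB13, as in 12.9% of all genes. The other 19 members had 0 to 49 footprint counts over the 6 libraries and were not tested.

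In RNA, 2 of 54 members tested rose, RAB24 and RAB5A, where 1.72% of all 13118 genes tested were called, 0.808% as rises and 0.907% as falls. None fell by edgeR's quasi-likelihood test with these settings. At an unadjusted p under 0.05, 2 members were lower and 5 higher (3.70% and 9.26%, against 9.74% and 8.56% of all genes). DESeq2 called the same 2 rises and 0 falls among 63 members, where it called 1.78% of 18338 genes in either direction. The median log2 change was 0.03 in the members and −0.0023 over all genes. Footprints relative to RNA, the translational efficiency (TE), fell in RAB10, RAB5A, RAB7A and RAB6A and rose in none. That is 4 of 44 members (9.09%), where 1.69% of all 9454 genes tested were called, 1.22% as falls and 0.476% as rises. At an unadjusted p under 0.05, the ratio was lower in 12 members and higher in 1 (27.3% and 2.27%, against 8.32% and 6.97% of all genes). DESeq2 called 6 of 63 members as falls, with RAB1A and RAB5C added, and 0 as rises. In that fit 0.956% of 18405 genes were called as falls. The median change of TE was −0.25 in the members and 0.02 over all genes. When each tumour was kept as a block, which links its footprint library to its RNA library, 9 members were called, all falls, where 5.05% of all genes tested fell in that fit. The 5 added were RAB1A (adjusted p = 0.0229 with the block), RAB5C (0.00268), RAB17 (0.0232), RAB4B (0.018) and RAB6D (0.00924). The members also called without it had adjusted p of 1.07e-07 (RAB10), 0.000196 (RAB5A), 0.00052 (RAB7A) and 0.00124 (RAB6A) with the block. The fits that left out 1 tumour had no block.

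**Figure D1:**
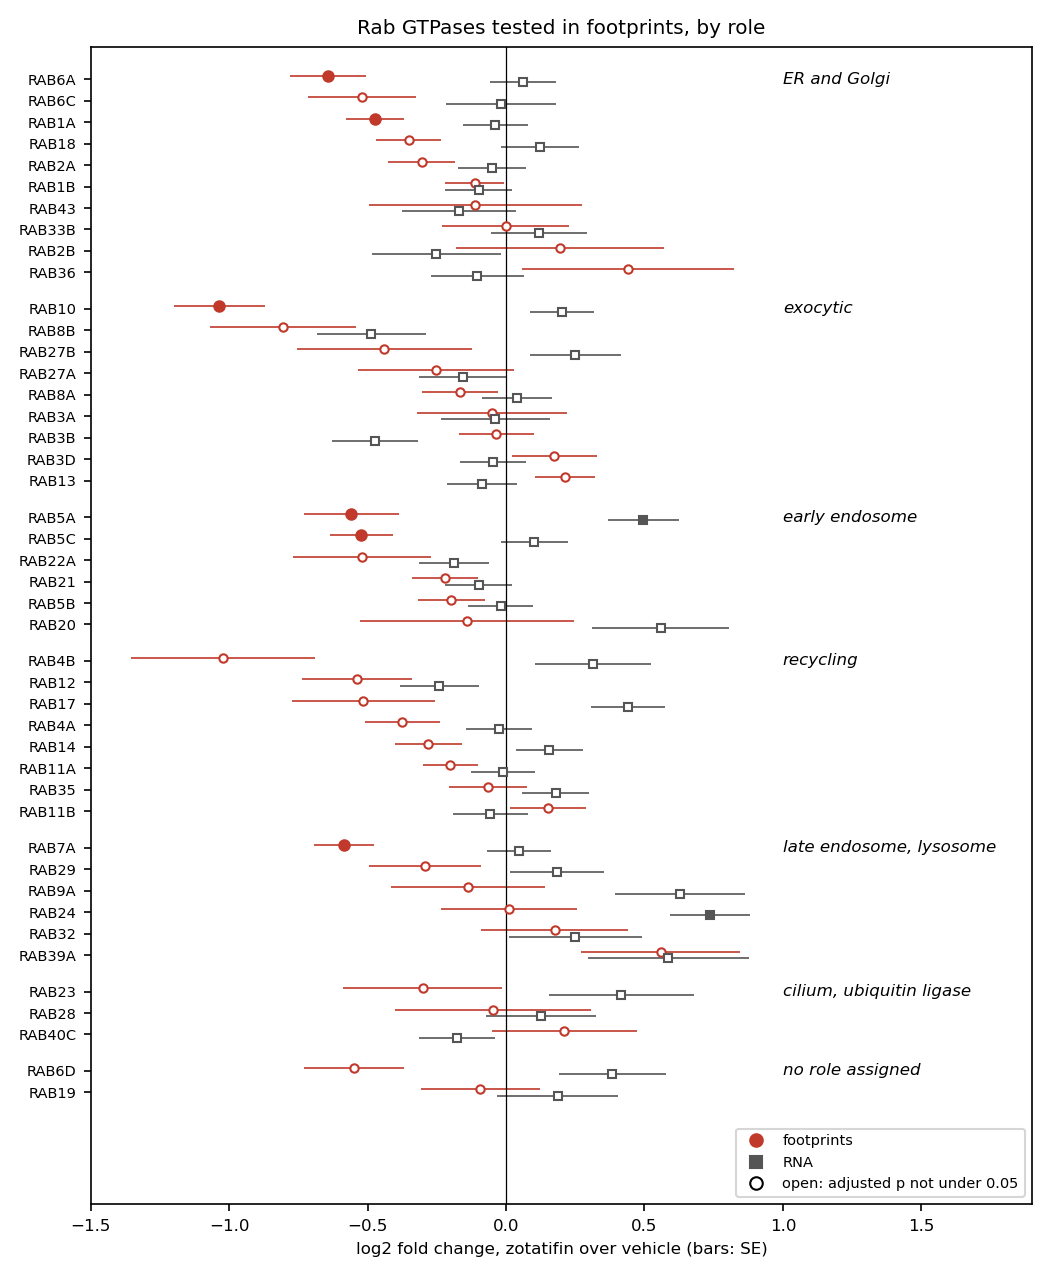
Log2 fold change of zotatifin over vehicle (horizontal axis) for the 44 Rab GTPases tested in footprints, grouped by role, with footprints as red circles, RNA as grey squares and bars for the SE. Filled symbols passed an adjusted p under 0.05: 6 footprint falls, in 4 of the role groups, and 2 RNA rises.

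**Figure D2:**
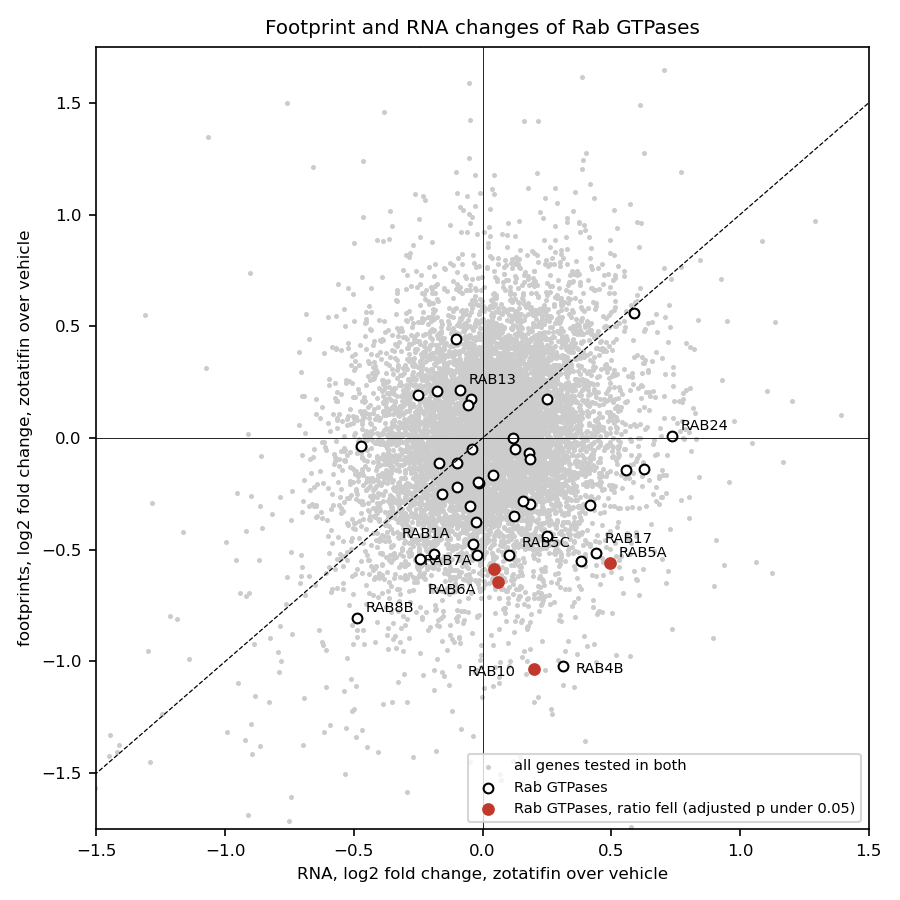
Log2 fold change of footprints (vertical) against that of RNA (horizontal), zotatifin over vehicle, with Rab GTPases as circles over 9454 genes in grey (38 of these lie outside the axes). The 4 filled circles are members whose ratio fell, and 35 of the 44 members lie below 0 on the footprint axis.

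Among the Rabs of secretory vesicles, RAB10 had the lowest footprint estimate of all members. RAB10 carries vesicles to the plasma membrane, among them those with glucose transporters in fat cells, and its gene lies on chromosome 2, 26033285 to 26137454 (GRCh38.p14; transcript ENST00000264710). Its footprints stood at 103, 51.5 and 98.3 CPM in the zotatifin tumours, against 202, 157 and 177 CPM in the vehicle tumours. The groups were far apart, and tumour 2 was the lowest in both. The log2 change was −1.04 ± 0.17 (SE, n = 3 each, adjusted p = 0.000789). RAB10 RNA stood at 174, 169 and 178 CPM in the zotatifin tumours, against 161, 152 and 140.0 CPM in the vehicle tumours, with zotatifin higher and no overlap, but its change of 0.20 ± 0.12 did not pass the test (adjusted p = 0.374). The log2 ratio of footprint CPM to RNA CPM was −0.75, −1.71 and −0.86 with zotatifin, against 0.33, 0.04 and 0.34 with vehicle. No ratio overlapped, and the change of TE was −1.21 ± 0.21 on the log2 scale (adjusted p = 0.00187). Both calls held when any 1 of the tumours was left out, with adjusted p up to 0.0154 in footprints and 0.0293 for TE.

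The other exocytic Rabs did not pass the test in footprints. RAB8B, which with RAB8A directs vesicles to the cell surface and the cilium, had 14.8, 14.7 and 15.5 CPM in the zotatifin tumours, against 35.9, 18.9 and 23.5 CPM in the vehicle tumours (−0.81 ± 0.26, adjusted p = 0.0593). The 3 zotatifin libraries were nearly level and below every vehicle library, of which tumour 1 stood apart. Whether it passed depended on single libraries and on the filter: without vehicle tumour 1 the change was −0.48 (adjusted p = 0.421), without vehicle tumour 2 it passed (adjusted p = 0.0176), and without the low-count filter it passed too (adjusted p = 0.0301). Its RNA was lower as well, without overlap (−0.49 ± 0.20, adjusted p = 0.195), and its change of TE was −0.29 ± 0.33 (adjusted p = 0.73). RAB8A had −0.17 in footprints and 0.04 in RNA. RAB13, which serves tight junctions and the delivery of their proteins, was the member with zotatifin libraries above vehicle libraries, at 221, 253 and 229 CPM in the zotatifin tumours, against 199.5, 211 and 193 CPM in the vehicle tumours (0.21 ± 0.11, adjusted p = 0.242).

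Of the RAB3 group, which docks regulated secretory granules, RAB3B RNA stood at 234, 149 and 259 CPM in the zotatifin tumours, against 324, 279.8 and 288 CPM in the vehicle tumours. The groups did not overlap, and zotatifin tumour 2 was far below the others (−0.47 ± 0.16, adjusted p = 0.117). Without the low-count filter it passed as a fall (adjusted p = 0.0196), and without zotatifin tumour 2 the change was −0.27. Footprints of RAB3B were close between the groups (94.1 ± 8.86 CPM with zotatifin and 96.0 ± 9.55 CPM with vehicle, SD, n = 3). RAB3D differed by 0.17 ± 0.15 in footprints and −0.05 ± 0.12 in RNA, neither past the test, and RAB3A by −0.05 and −0.04. The granule Rabs RAB27A and RAB27B had −0.25 and −0.44 in footprints, with SEs of 0.28 and 0.32.

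In the ER and Golgi group, 10 of 15 members were tested in footprints and 2 fell, where 3.92% of all genes tested were called as falls. RAB1A, which with RAB1B drives transport from the ER to the Golgi (chromosome 2, 65086854 to 65130106), had footprints of 229, 229 and 237 CPM in the zotatifin tumours, against 344, 311 and 311 CPM in the vehicle tumours. The zotatifin libraries lay within a few CPM of each other and below all vehicle libraries (−0.47 ± 0.10, adjusted p = 0.00544). RAB1A RNA was level, at 108 ± 1.27 CPM with zotatifin and 111 ± 4.37 CPM with vehicle (SD, n = 3). Without vehicle tumour 1 the footprint call was lost (adjusted p = 0.0634), and the change of its ratio was −0.41 ± 0.15 (adjusted p = 0.154), which passed the test with the tumour block and with DESeq2.

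RAB6A guides vesicles to, within and from the Golgi (chromosome 11, 73675638 to 73761074). Its footprints were 80.7, 58.9 and 85.4 CPM in the zotatifin tumours, against 122, 120.5 and 117 CPM in the vehicle tumours, a log2 change of −0.64 ± 0.14 (adjusted p = 0.00421) that was called without any 1 library too. RAB6A RNA was 126 ± 10.5 CPM with zotatifin and 121 ± 2.98 CPM with vehicle. The log2 ratio was −0.73, −0.96 and −0.61 with zotatifin, against −0.02, 0.03 and −0.05 with vehicle, and its change of −0.68 ± 0.18 was just past the threshold (adjusted p = 0.0455). Without the block, the TE call was lost when any 1 of the 6 tumours was left out (adjusted p 0.0502 to 0.163). With all tumours and the tumour block, the adjusted p for TE was 0.00124. RAB6C and RAB6D are intronless relatives of RAB6A, so reads of the 3 genes may be split between them. RAB6D had 39.0, 29.4 and 31.0 CPM in the zotatifin tumours, against 51.6, 53.8 and 40.0 CPM in the vehicle tumours (−0.55 ± 0.18, adjusted p = 0.062), and the estimate for RAB6C was −0.52 ± 0.19 (adjusted p = 0.1). In all 3 genes the zotatifin footprint libraries were below the vehicle libraries.

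RAB18, which acts on lipid droplets and the ER, and RAB2A, which acts between the ER and the Golgi, had footprint estimates of −0.35 ± 0.12 (adjusted p = 0.0648) and −0.31 ± 0.12 (adjusted p = 0.123). RAB1B (−0.11), RAB43 (−0.11), RAB33B (−0.00161), RAB2B (0.19) and RAB36 (0.44) made up the rest of the group, with SEs of 0.11 to 0.39. In RNA, the 13 tested members of the group spanned −0.25 to 0.17, and none passed the test.

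The early endosome group held 2 of the 6 footprint falls among its 6 tested members, and all 6 estimates were below 0 (median −0.37). Over all genes tested, 3.92% were called as falls and 49.7% of estimates were below 0. RAB5 proteins fuse endocytic vesicles with early endosomes. RAB5A (chromosome 3, 19947097 to 19985175) had footprints of 57.3, 35.6 and 53.7 CPM in the zotatifin tumours, against 76.7, 59.9 and 85.8 CPM in the vehicle tumours. The groups did not overlap, though the highest zotatifin and lowest vehicle library were near each other (−0.56 ± 0.17, adjusted p = 0.0428). RAB5A RNA was 70.1, 77.3 and 78.7 CPM in the zotatifin tumours, against 58.2, 53.4 and 48.8 CPM in the vehicle tumours, with zotatifin above vehicle throughout, and it rose by 0.50 ± 0.13 (adjusted p = 0.0496). With both moving apart, the log2 ratio was −0.29, −1.12 and −0.55 with zotatifin, against 0.40, 0.17 and 0.81 with vehicle, a fall of TE (−1.03 ± 0.22, adjusted p = 0.0109). The RAB5A calls were lost when single tumours were left out. The footprint call held only without vehicle tumour 2 (adjusted p up to 0.177 otherwise), the RNA call was lost without any 1 tumour (up to 0.184), and the TE call was lost without vehicle tumour 1 or 3 (up to 0.106). The footprint call was also lost with DESeq2, and the RNA call with RLE size factors and with a mean of at least 20 counts. With all tumours and the tumour block, the adjusted p for TE was 0.000196.

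RAB5C (chromosome 17, 42124979 to 42154989) had footprints of 131, 125 and 143 CPM in the zotatifin tumours, against 196, 189 and 192 CPM in the vehicle tumours, with little spread within either group. Its log2 change of −0.52 ± 0.11 (adjusted p = 0.00463) was called without any 1 library (up to 0.0438). RAB5C RNA was 133 ± 11.2 CPM with zotatifin and 124 ± 9.82 CPM with vehicle, and the change of TE, −0.60 ± 0.16, missed the threshold narrowly (adjusted p = 0.051). RAB5B had −0.20 ± 0.12 in footprints and −0.02 in RNA. RAB22A and RAB21, which act with RAB5 on early endosomes, had −0.52 ± 0.25 (adjusted p = 0.216) and −0.22 ± 0.12. RAB20, known from phagosomes, had RNA of 10.4, 10.4 and 11.2 CPM in the zotatifin tumours, against 7.87, 7.86 and 6.12 CPM in the vehicle tumours, higher throughout with zotatifin but not past the test (0.56 ± 0.25, adjusted p = 0.232).

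Of the recycling Rabs, which return receptors from endosomes to the surface, none of 8 tested passed the footprint test. Of their estimates 7 were below 0, as were 49.7% over all genes. In 5 members all zotatifin libraries were below all vehicle libraries, as they were in 13.5% of all genes. At an unadjusted p under 0.05, 4 of the 8 were lower, against 11.8% of all genes, and DESeq2 called none, giving no adjusted p for RAB4B. RAB4B was the lowest, with 4.34, 7.36 and 8.41 CPM in the zotatifin tumours, against 12.8, 12.8 and 16.5 CPM in the vehicle tumours (−1.02 ± 0.33, adjusted p = 0.057). It had 5 to 26 footprint counts per library, and it is named outside the naming rule, having been picked after its values were seen. RAB4A, its relative in rapid recycling, had −0.37 ± 0.14 (adjusted p = 0.0922), and RAB12, which steers transferrin receptors to degradation, −0.54 ± 0.20 (adjusted p = 0.0948).

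RAB17, a Rab of polarised epithelial cells, had footprints of 13.9, 13.5 and 14.2 CPM in the zotatifin tumours, against 21.6, 17.2 and 21.0 CPM in the vehicle tumours. Its RNA stood at 62.8, 68.7 and 61.2 CPM in the zotatifin tumours, against 40.7, 49.4 and 51.5 CPM in the vehicle tumours, and neither comparison overlapped. The footprint change was −0.52 ± 0.26 (adjusted p = 0.238) and the RNA change 0.44 ± 0.13 (adjusted p = 0.0927). Its TE differed by −0.93 ± 0.27 (adjusted p = 0.0762; adjusted p = 0.0232 with the tumour block). RAB11A, the main Rab of slow recycling, had footprints of 391, 389 and 418 CPM in the zotatifin tumours, against 475, 447 and 457 CPM in the vehicle tumours, which did not overlap (−0.20 ± 0.10, adjusted p = 0.232), whereas RAB11B overlapped (0.15 ± 0.14). RAB14 had −0.28 ± 0.12 and RAB35 −0.07 ± 0.14. RAB15, which had 51 to 79 RNA counts per library, had 0 to 2 footprint counts per library and was not tested.

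In the late endosome and lysosome group, RAB7A, which matures late endosomes and moves lysosomes (chromosome 3, 128726183 to 128814798), fell in footprints. It had 219.5, 199 and 206 CPM in the zotatifin tumours, against 283, 335 and 320.2 CPM in the vehicle tumours, and the groups were well apart (−0.58 ± 0.11, adjusted p = 0.00131). This call held without any 1 library (up to 0.00738). RAB7A RNA was 309 ± 1.58 CPM with zotatifin and 299 ± 17.8 CPM with vehicle, and the log2 ratio was −0.48, −0.64 and −0.59 with zotatifin, against −0.14, 0.12 and 0.20 with vehicle (−0.60 ± 0.15, adjusted p = 0.0343). In fits with no block, the TE call was lost without vehicle tumour 2 or 3 or zotatifin tumour 1 or 3 (up to 0.154). With all tumours and the tumour block, the adjusted p for TE was 0.00052.

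RAB24, a Rab linked to autophagy (chromosome 5, 177301198 to 177303719), rose in RNA, and its footprints did not pass the test. Its RNA was 68.4, 85.2 and 61.8 CPM in the zotatifin tumours, against 37.6, 45.2 and 46.2 CPM in the vehicle tumours, a change of 0.74 ± 0.14 (adjusted p = 0.0143). That call was lost without vehicle tumour 1 or 3 (up to 0.133). Footprints of RAB24 overlapped, at 20.8, 29.4 and 19.4 CPM in the zotatifin tumours, against 20.6, 17.8 and 29.2 CPM in the vehicle tumours (0.01 ± 0.25, adjusted p = 0.988), and its change of TE did not pass the test (−0.70 ± 0.29, adjusted p = 0.23).

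RAB9A, which returns sorting receptors from late endosomes to the Golgi, had RNA of 14.9, 25.4 and 18.7 CPM in the zotatifin tumours, against 10.7, 9.99 and 17.0 CPM in the vehicle tumours (0.63 ± 0.24, adjusted p = 0.158) and −0.14 in footprints. Its relative RAB9B, tested in RNA only, had −0.46 ± 0.38. RAB39A had 0.56 ± 0.29 in footprints and 0.59 ± 0.29 in RNA, RAB32, a Rab of lysosome-related organelles, 0.18 and 0.25, and RAB29, a substrate and partner of the kinase LRRK2, −0.29 and 0.18. None of these passed a test.

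Outside traffic proper, RAB23, which restrains Hedgehog signalling at the cilium, had −0.30 ± 0.29 in footprints and 0.42 ± 0.26 in RNA, and RAB40C, which joins a ubiquitin ligase through its SOCS box, 0.21 ± 0.26 and −0.18 ± 0.14. RAB28 had −0.05 and RAB19 −0.09 in footprints. None passed a test. Of the 19 members without a footprint test, 10 were tested in RNA and none of those passed. Their RNA estimates were −1.01 ± 0.49 for RAB31, a Rab of the trans-Golgi and endosomes (adjusted p = 0.273), and −0.46 to 0.19 for RAB3C, RAB6B, RAB9B, RAB15, RAB26, RAB30, RAB34, RAB39B and RAB40B. RAB31 RNA was 1.69, 2.02 and 1.06 CPM in the zotatifin tumours, against 3.15, 1.47 and 4.87 CPM in the vehicle tumours. The groups overlapped, with vehicle tumours 1 and 3 above every zotatifin tumour, as the fibroblast markers were lower with zotatifin, whose part in the result was not tested. In RNA, 9 members had 1 to 48 counts over the 6 libraries and were not tested: RAB7B, RAB25, RAB33A, RAB37, RAB38, RAB40A, RAB41, RAB42 and RAB44.

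**Figure D3:**
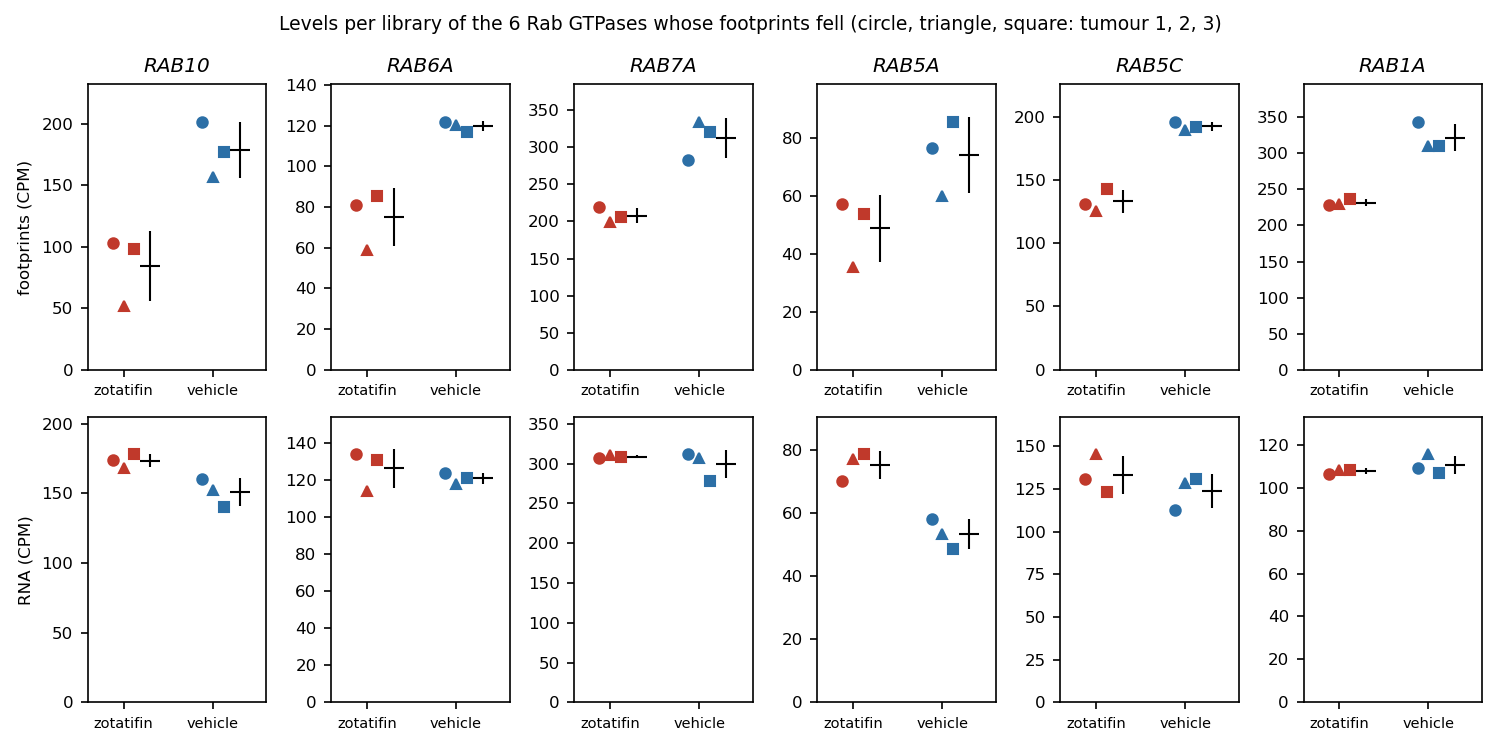
CPM in each library for the 6 Rab GTPases whose footprints fell, with footprints above and RNA below (both axes from 0), zotatifin left in red and vehicle right in blue, and the mean and SD of 3 libraries beside the points. Every zotatifin footprint library lies below every vehicle library in all 6, while RNA overlaps in RAB6A, RAB7A, RAB5C and RAB1A and is higher with zotatifin in RAB10 and RAB5A.

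Dividing the counts of 1 gene by those of a relative in the same library removes the scaling of the library, and this was done for 10 pairs in both assays, picked after the values were known. The ratio of RAB1A to RAB1B footprints was 0.910, 0.850 and 0.915 with zotatifin, against 1.18, 1.05 and 1.23 with vehicle, with no overlap. In RNA the same ratio was 0.330, 0.308 and 0.346 with zotatifin, against 0.330, 0.294 and 0.320 with vehicle, and the groups overlapped. For RAB10 over RAB8A, footprints gave 1.40, 0.737 and 1.19 with zotatifin, against 2.19, 1.87 and 2.21 with vehicle, a difference of −0.96 on the log2 scale, and RNA overlapped.

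RAB5C over RAB5B was 1.06, 0.857 and 0.860 with zotatifin, against 1.10, 1.18 and 1.18 with vehicle in footprints, again apart, while RAB5A over RAB5B overlapped in footprints. In RNA it was RAB5A over RAB5B that lay apart, at 0.308, 0.329 and 0.339 with zotatifin, against 0.247, 0.210 and 0.227 with vehicle. The footprint ratios RAB8B over RAB8A, RAB4B over RAB4A and RAB11A over RAB11B were also lower with zotatifin in every library, and RAB8B over RAB8A was lower in RNA as well. Each of these 8 separations had a p of 0.1 (two-sided exact permutation test, the smallest that 3 against 3 can give) and an adjusted p of 0.25 over the 20 ratios. The adjustment does not cover that the pairs were picked after the values were known. How often pairs of other genes separate was not counted. RAB3B over RAB3D, RAB2A over RAB2B and RAB7A over RAB9A overlapped in both assays.

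**Figure D4:**
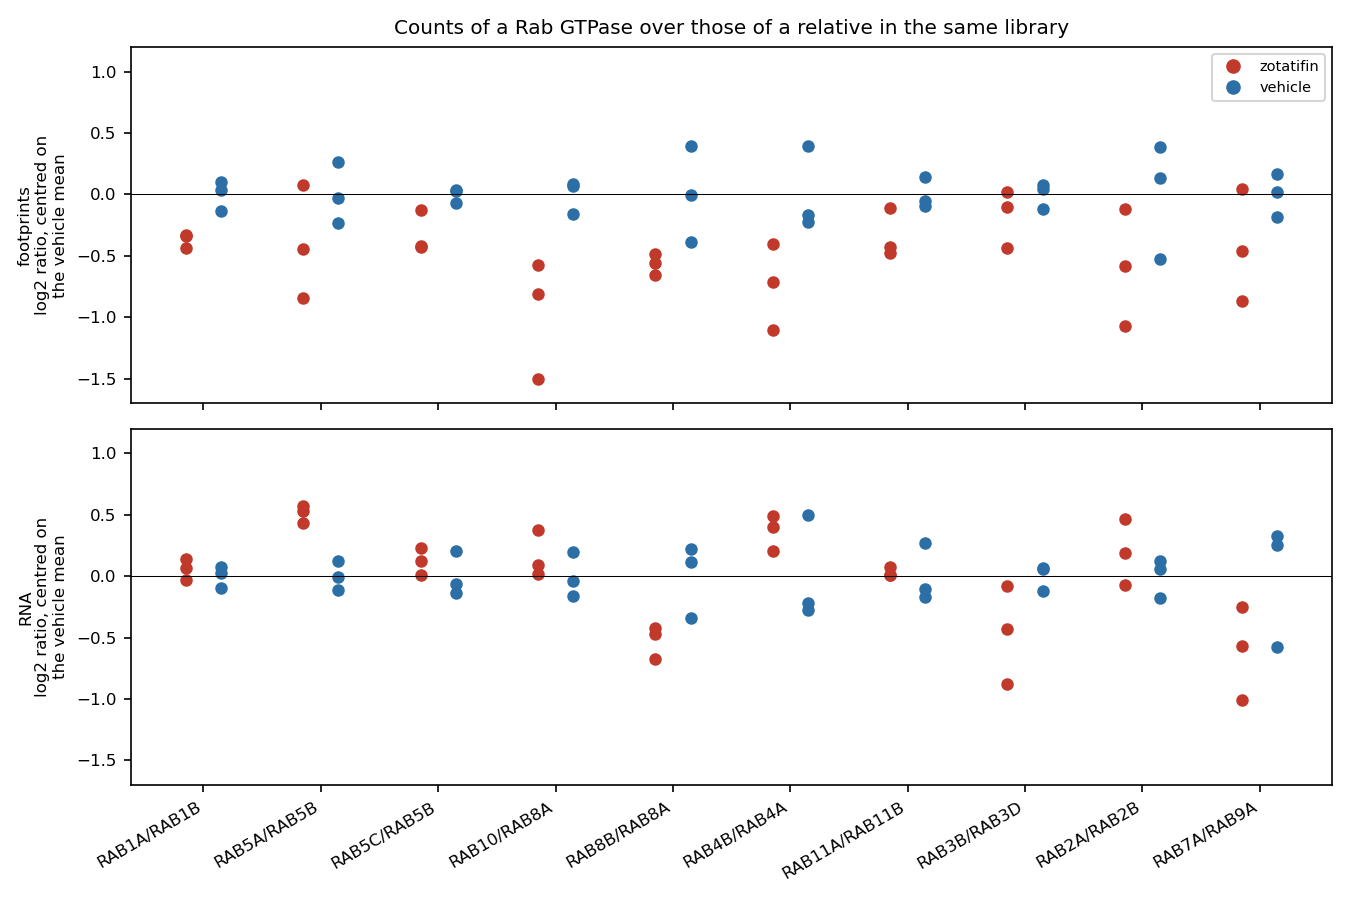
Log2 ratio of the counts of 2 related Rab GTPases in each library, minus the vehicle mean (vertical axis), for 10 pairs, with zotatifin in red to the left of vehicle in blue, footprints above and RNA below. In footprints 6 pairs have all zotatifin libraries below all vehicle libraries, with RAB10/RAB8A reaching the lowest values. The pairs were picked after the values were known.

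The start of the mRNA is where eIF4A works, and inhibitors of the class of zotatifin are known to clamp it on purine-rich RNA, so the bases from the RefSeq start of each gene were set beside the ratio. At most 1 RefSeq start was used for each gene, and it may not be the one used in these tumours. For RAB10 and RAB13 that start lies inside the gene as RefSeq places it (chromosome 2, 26033285 to 26137454, and chromosome 1, 153981650 to 153990708). Their runs hold for the start used, and other starts were not examined. Of the 63 members, 50 had an entry (RAB1A did not), and 38 of these were tested for TE. GC content over the first 50 bases was 38% to 86% in the 50 (median 70%). The median was 60% over all 27305 RefSeq starts and 66% in 7632 genes tested for TE. Printed here are 30 bases of that stretch for 7 of the 9 members whose ratio fell in the fit with the tumour block and for 3 whose footprint estimate was above 0. They read 5′ to 3′ on the coding strand of GRCh38.p14, and capitals mark the longest run of A and G within the first 50 bases.
RAB10 (chr2:26034104-26034133, plus strand): cggcgtgagagggcacGGGGAAAAGGtggc
RAB5A (chr3:19947112-19947141, plus strand): gcgacgtggcggcGGGGccggcaccgggca
RAB6A (chr11:73761025-73761054, minus strand): gcggcggcggcagctgtGGAAGctcaggcg
RAB7A (chr3:128726183-128726212, plus strand): agtcttggccatAAAGcctgaggcggcggc
RAB5C (chr17:42154940-42154969, minus strand): gggacaccgccggcGGGGAGAGAAGcggat
RAB17 (chr2:237590698-237590727, minus strand): aaccttctGGGAGGAGAAGAGGcctgacct
RAB4B (chr19:40778264-40778293, plus strand): gcccggggagtAGGAAGGAGccggggctgt
RAB13 (chr1:153986310-153986339, minus strand): cttcctggcctGGGctccgtgccgctctgt
RAB3D (chr19:11339628-11339657, minus strand): cttctgggcGGAGcccgcgcgggatccggg
RAB11B (chr19:8390380-8390409, plus strand): ctgcggagtcgccgatcccgccGGAAGcgc
RAB17, RAB5C, RAB10 and RAB4B have runs of 14, 11, 10 and 9 purines. RAB5A, RAB6A and RAB7A, whose ratio fell as well, have runs of 4, 5 and 4, and RAB11B, RAB3D and RAB13 have runs of 5, 4 and 3. RAB6D, which fell with the block and is not shown, has a run of 6. RAB29, RAB21 and RAB27B, with runs of 17, 13 and 10, were called neither with nor without the block. Their TE changes were −0.44, −0.09 and −0.66. RAB2B and RAB39A, also above 0 in footprints, have runs of 7 and 6. The median run was 5 both in the 50 members and in all genes tested. Over the 38 members with a start and a test of TE, a longer run went with a lower TE change (Spearman rho = −0.366), and rho was −0.126 over the 7632 genes. The points share the same 12 libraries and differ in depth. For GC content, rho was −0.0177 over the members and 0.0921 over the genes. GAGAGA or AGAGAG, searched on the coding strand only and able to overlap each other, occurs in the first 50 bases of 7 of the 50 members (14.0%) and of 3.92% of 27305 RefSeq starts. Among those tested for TE, 6 of 38 members and 3.09% of 7632 genes held either. The 7 members were RAB29, RAB21, RAB27B, RAB8A, RAB2B, RAB5C and RAB31, of which RAB5C alone was called in footprints.

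**Figure D5:**
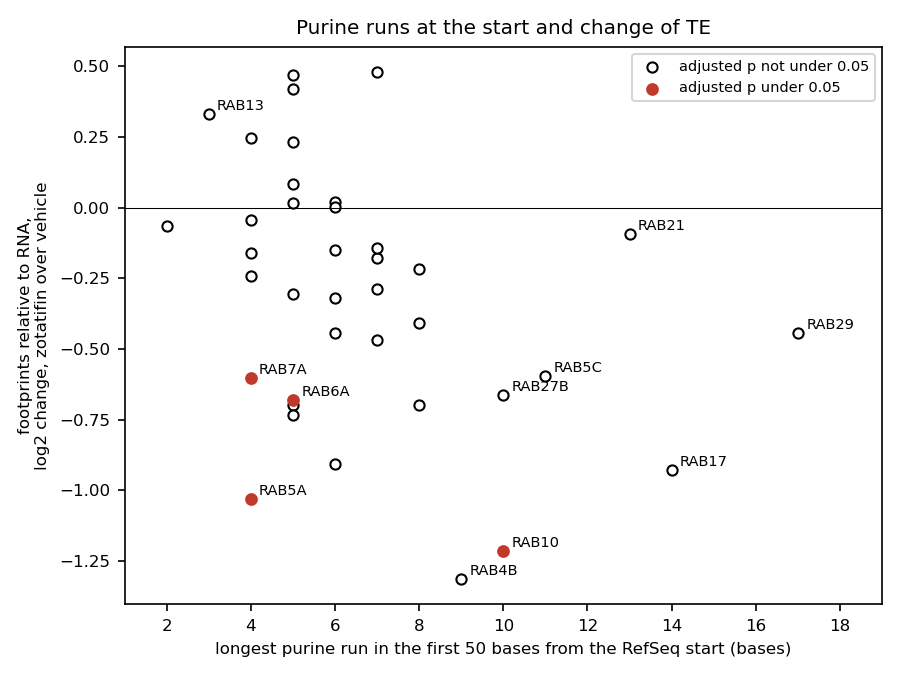
Change of TE, as log2 of zotatifin over vehicle (vertical), against the longest purine run in the first 50 bases from the RefSeq start (horizontal), for 38 Rab GTPases, with filled points for an adjusted p under 0.05. RAB10 is the filled point with a run of 10, and the other 3 filled points have runs of 4 or 5.

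In footprints and RNA, the genes that switch Rabs on and off or read their state were called no more often than all genes, in either direction. Of 106 exchange factors, activating proteins, effectors, carriers and other regulators tested in footprints, 3 rose and 2 fell (2.83% and 1.89%, against 3.22% and 3.92% of all genes), with a median of 0.0049. RIN3, an exchange factor for RAB5, rose by 1.00 ± 0.17 (adjusted p = 0.00138), with 149.7 ± 40.1 CPM with zotatifin and 73.7 ± 12.6 CPM with vehicle. Its RNA, at 0.565 ± 0.321 CPM with zotatifin and 1.86 ± 1.11 CPM with vehicle, did not pass the filter, so its TE was not tested. Whether the RIN3 footprints come from translation of its mRNA was not tested either. DENND6B, an exchange factor for RAB14, rose in footprints from a low level (1.46 ± 0.40, adjusted p = 0.0247). It had 10.7 ± 3.57 CPM with zotatifin and 3.67 ± 0.83 CPM with vehicle (SD, n = 3). DENND6B also rose in TE (1.89 ± 0.43, adjusted p = 0.0167), as 1 of 105 regulators tested (0.952%, against 0.476% of all genes). Footprints of RAB11FIP1, an effector of RAB11, rose too (0.69, adjusted p = 0.016). TBC1D5, an activating protein for RAB7, fell (−0.70, adjusted p = 0.0196), as did USO1, a Golgi tether recruited by RAB1 (−0.38, adjusted p = 0.0427). In RNA, 1 of 127 rose (0.787%, against 0.808% of all genes), HPS4 (0.64, adjusted p = 0.0276), part of an exchange factor for RAB32 and RAB38, and 1 fell, RILPL2 (−0.71, adjusted p = 0.0239), an effector at the cilium (0.787%, against 0.907% of all genes). Whether members and regulators differ was not tested.

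In the authors' deposited table for footprints, whose estimate was read as a natural log change of TE, 52 members are listed, and 15 have an FDR under 0.05 with an estimate below 0 and 2 with one above 0, where 10.2% of its 11446 genes are below 0 at that FDR. On the log2 scale, the authors' deposited table gives −1.22 for RAB10, −1.17 for RAB5A, −0.69 for RAB7A and −0.67 for RAB6A. The 2 above 0 in the authors' deposited table are RAB13 (0.40) and RAB3B (0.37). For RNA, the authors' deposited table calls RAB24 and RAB5A, with log2 changes of 0.74 and 0.50. The authors' shares of all genes above 0 for footprints, and of all genes called for RNA, were not counted here.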

How the data were processed

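Footprints and RNA of 22Rv1 xenografts were deposited as 1 table each of raw counts per transcript (19037 and 19038 transcripts), and per the labels' protocols footprints came from monosomes, with fragments between 24 and 34 nt. Per the submitters' processing notes, the reads were handled with Bowtie2 2.3.5, cutadapt 2.3 and UMI-tools, against hg38, and DESeq2 is also listed; the order of steps, the strand setting and the region counted are not stated there. Footprints of 24 to 34 nt cannot always be assigned between near-identical Rab genes. Per the file headers, the authors' RNA comparison gives a signal (mean normalised count), log2 fold changes, a Wald score and p-values. In the authors' deposited footprint table, an estimate on the natural log scale comes with an FDR, a p-value adjusted by the authors; its scale was read from 1566 genes with a mean above 200 counts, where regression gave slopes of 0.665 (log2 change of footprints) and −0.666 (log2 change of RNA).

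From the deposited counts, all transcripts were fitted in R 4.3.3 with edgeR 4.0.16 (filterByExpr with minimum count 10 and minimum total count 15, TMM, robust quasi-likelihood F test, Benjamini-Hochberg over all genes tested). SEs were taken as the log2 change over the root of F. For TE, a single model of the 12 libraries held assay, treatment and their interaction, which was tested. The 6 footprint and RNA library pairs of 1 number and treatment, which share a lysate per the labels, correlated at 0.217 to 0.440 after removal of group means (4889 genes averaging 50 counts or more in each assay), so the tumour was also fitted as a block. Numbers did not pair the treatments (−0.0946 to 0.181). The fits were tested on simulated data. Alternatives were RLE scaling, DESeq2 1.42.0, no filter, a mean of at least 20 counts, leaving out each tumour, and the block.

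The members and gene lists were chosen with earlier results of these data known. Named members are those called, the 5 largest rises and falls per comparison with a mean of at least 20 counts, and the 1 with the most footprint counts in each role, in place of the most per coding length, since no lengths were used here; others are named to account for every tested member. Roles come from textbook knowledge. Ratios between related Rabs were compared by exact permutation of samples (scipy 1.17.1). Symbols, GRCh38.p14 positions and start sequences are RefSeq's. No depth is known beyond the counts, and p-values measure the spread between 3 tumours.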

Additional observations from a re-analysis of the deposited data

How the results depend on the processing

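Footprint calls among the Rab GTPases numbered 6 under RLE size factors and with a mean of at least 20 counts, 5 with DESeq2 (without RAB5A), 8 without the low-count filter (RAB6D and RAB8B added), 8 with the replicate number as a block across treatments (RAB4B and RAB8B added, adjusted p = 0.0453 and 0.0494), and 4 to 7 with 1 tumour left out. RNA calls, 2 as reported, numbered 1 under RLE size factors, 1 with a mean of at least 20 counts, 4 without the filter (RAB17 added as a rise, RAB3B as a fall), 3 with the block (RAB3B added as a fall, adjusted p = 0.0185), 2 with DESeq2 and 0 to 1 with 1 tumour left out. TE calls, 4 as reported, numbered 9 with the tumour as a replicate block, which pairs footprints and RNA, 6 with DESeq2, 5 without the filter or with a mean of at least 20 counts, 4 under RLE size factors and 1 to 3 with 1 tumour left out. The cause of these shifts was not tested. Over all genes, the footprint count of 681 of 9544 (7.14%) was 416 of 15022 with DESeq2 (2.77%). It was 905 of 15022 without the filter (6.02%), where 62 members were tested, and 796 of 9544 with the block (8.34%). With 1 tumour left out it was 185 of 9761 (without vehicle tumour 1) to 726 of 9767 (without vehicle tumour 2). The RNA count of 225 of 13118 (1.72%) was 195 under RLE size factors (1.49%). With a mean of at least 20 counts it was 181 of 12130 (1.49%). It was 624 of 18338 without the filter (3.4%), 527 of 13118 with the block (4.02%) and 327 of 18338 with DESeq2 (1.78%). With 1 tumour left out it was 11 of 13375 (0.0822%, without vehicle tumour 1) to 396 of 13384 (2.96%, without vehicle tumour 2). Without vehicle tumour 1 or 3, 0 members were called in RNA, where 11 of 13375 and 25 of 13215 genes were. So few calls over all genes cannot tell members from other genes. The TE count of 160 of 9454 (1.69%) was 819 of 9454 with the block (8.66%) and 233 of 18405 with DESeq2 (1.27%). It was 193 of 14955 without the filter (1.29%) and 182 of 7617 with a mean of at least 20 counts (2.39%). Under RLE size factors it was 161 of 9454. With 1 tumour left out it was 56 of 9669 (0.579%, without vehicle tumour 1) to 132 of 9726 (1.36%, without zotatifin tumour 2). The block across treatments rests on a number that did not pair the tumours. Some log2 changes that did not pass the test changed sign: RAB11A RNA without the filter (0.0045), RAB24 footprints with the block (−0.0039), and RAB39A TE with DESeq2 (−0.032), without the filter (−0.035) and with the block (−0.040). With 1 tumour left out the sign also changed, over the ranges given, for RAB11A RNA (−0.060 to 0.044), RAB11B RNA (−0.19 to 0.092), RAB20 footprints (−0.36 to 0.049), RAB24 footprints (−0.15 to 0.22), RAB2B footprints (−0.0013 to 0.53), RAB32 RNA (−0.040 to 0.53), RAB32 TE (−0.39 to 0.28), RAB39A TE (−0.33 to 0.25), RAB3B footprints (−0.11 to 0.025), RAB7A RNA (−0.0024 to 0.072) and RAB9A footprints (−0.47 to 0.13). Footprint depth, the lowest in zotatifin tumour 2, limits members with few counts, and 19 could not be tested.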
